A study of Homo sapiens with 12 samples.

Results

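The genes described here encode the fibroblast growth factor (FGF) receptors and FGF ligands of SK-UT-1 cells, an established human uterine leiomyosarcoma line. They were taken by name: the receptors FGFR1, FGFR2, FGFR3, FGFR4 and FGFRL1, and the ligands FGF2, FGF5, FGF7 and FGF18. Of these 9 genes, 8 were found among the 22784 gene symbols of the expression table, 5 receptors and 3 ligands, and FGF7 was not analysed here. Cells were treated for 48 h with the DMSO vehicle, with 5 µM JQ1 or with 5 µM I-BET 762, and their total RNA was sequenced. The labels give 12 libraries, 4 in each group, and 10 were analysed: DMSO replicates 13, 14 and 15, JQ1 replicates 17, 18, 19 and 20, and I-BET 762 replicates 21, 22 and 23. All groups are the same line, which stands for 1 tumor, and the labels do not say whether the libraries came from separate cultures, so the p-values measure the spread between these libraries, which may be technical.

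FGFs are secreted or released ligands that bind FGF receptors together with heparan sulfate chains on the cell surface. Receptors 1 to 4 are tyrosine kinases. Once paired by ligand they phosphorylate adaptors such as FRS2 and switch on the RAS and ERK cascade, which in turn induces ETV transcription factors and the DUSP and Sprouty inhibitors that limit the signal. BET proteins are chromatin readers that bind acetylated lysines through their bromodomains, and JQ1 and I-BET 762 both occupy that pocket. JQ1 carries a thiophene ring fused to its triazolodiazepine core where I-BET 762 carries a benzene ring.

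FGFR2, FGFR3 and FGF18 were higher than in the DMSO control with both inhibitors, and their start regions are shown because these genes moved together. Each sequence is the stretch just before the gene start on the gene's own strand, from RefSeq GRCh38.p14, and capitals mark GGGCGG or its reverse complement CCGCCC, the GC box bound by SP family factors. For FGFR2 the 14 bases nearest the RefSeq start were left out because another annotated start of the gene lies before them.
FGFR2, chr10:121598459-121598694, minus strand: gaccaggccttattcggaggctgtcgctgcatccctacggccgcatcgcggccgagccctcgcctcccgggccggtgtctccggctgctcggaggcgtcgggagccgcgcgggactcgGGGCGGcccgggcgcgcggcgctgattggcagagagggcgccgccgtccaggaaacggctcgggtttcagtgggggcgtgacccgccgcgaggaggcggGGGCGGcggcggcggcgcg
FGFR3, chr4:1793043-1793292, plus strand: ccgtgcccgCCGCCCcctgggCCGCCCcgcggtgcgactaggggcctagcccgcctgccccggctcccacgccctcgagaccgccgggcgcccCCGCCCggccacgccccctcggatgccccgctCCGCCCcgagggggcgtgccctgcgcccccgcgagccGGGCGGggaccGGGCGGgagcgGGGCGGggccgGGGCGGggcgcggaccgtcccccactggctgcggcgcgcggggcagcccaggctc
FGF18, chr5:171419397-171419646, plus strand: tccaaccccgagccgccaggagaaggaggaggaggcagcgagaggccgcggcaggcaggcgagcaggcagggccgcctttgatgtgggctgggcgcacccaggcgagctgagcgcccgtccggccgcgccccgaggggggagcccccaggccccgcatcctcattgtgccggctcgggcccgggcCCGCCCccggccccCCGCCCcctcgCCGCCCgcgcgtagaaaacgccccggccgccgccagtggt

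The printed stretches hold 2, 8 and 3 GC boxes, and the full 250-base window of FGFR2 holds 3. In the RefSeq set, 42.6% of 35114 promoter windows of 250 bases held at least 1 on either strand. GC boxes were also found at the 4 other genes with a window: 7 at FGFR4, 4 at FGFRL1, 3 at FGF2 and 1 at FGF5. FGFR1 had no window in the table used. The GC content of the 7 windows ran from 67.6% at FGFRL1 to 86.8% at FGFR3, with the uncalled FGFR4 at 79.6%, FGF18 at 78.8% and FGFR2 at 78.4%, against a median of 58% over all windows. CCAAT, held by 32% of all windows, was found once at FGFR2 and once at FGFRL1, and CACGTG, held by 6.35%, once at FGFRL1. TATAAA (10.7% of windows) and TGACTCA (4.2%) had no match at the 7 genes searched. A match describes the letters of the window and is not evidence of binding.

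Reads assigned to genes ranged from 35564586 to 39658989 per library, and values are given as normalized counts, that is reads divided by the library's size factor. A count of 0 allows up to 3 reads, or 2.73 to 3.30 normalized counts, for counting error only. A gene was called a DEG (differentially expressed gene) when its limma Benjamini-Hochberg adjusted p-value was below 0.05 and its change exceeded 1.5-fold, or 0.585 on the log2 scale. All 8 genes passed the filter on low values. Of 9 smooth muscle markers, 8 were in the table (MYH11 was not analysed here), and their summed level ran from 20922.7 to 21517.7 in DMSO, 10870.6 to 11518.8 with JQ1 and 12192.5 to 12763.9 with I-BET 762. JQ1 called 7 of the 8 lower, beside 22.8% of all genes tested, and I-BET 762 called 6, beside 17.9%. The sums hide unequal changes: the JQ1 calls ran from -0.89 for MYLK to -4.63 for DES on the log2 scale. SMTN went the other way with both inhibitors (0.19 and 0.20) and was not called. The 6 epithelial markers summed to 1218.4 to 1279.5 in DMSO, 512.2 to 603.3 with JQ1 and 498.9 to 544.4 with I-BET 762. Most of the DMSO sum was KRT19, at a mean of 741, which fell to 246 and 191. Of the 4 tested, JQ1 called 4 lower and I-BET 762 called 3, without KRT18, beside the same 22.8% and 17.9%. CDH1 and ESRP1 were too low to be tested. Neither the 3 endothelial nor the 2 leukocyte markers summed to more than 7.40 in any library. The part of these marker shifts in the FGF results was not tested. In bulk RNA, fewer cells of a type and less RNA per cell cannot be told apart.

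With JQ1, 4 of the 8 genes rose (FGFR1, FGFR2, FGFR3 and FGF18) and 1 fell (FGFRL1), while 36.1% of all 14839 genes tested were called in this comparison, 13.3% higher and 22.8% lower. With I-BET 762, FGFR2, FGFR3 and FGF18 rose, against 26.9% of all genes called, 8.96% higher and 17.9% lower. For the 8 genes the median on the log2 scale was 0.48 under JQ1 and 0.43 under I-BET 762, beside 0.01 and -0.00 over all genes tested. Both comparisons use the same DMSO libraries. Over all genes, 63.1% of the JQ1 calls were lower, and 77.5% when libraries were scaled to equal totals, which left the same number of FGF genes called in each comparison.

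FGFR3, a receptor best known for restraining bone growth and for activating mutations in bladder cancer, had the largest change among the receptors with JQ1. Its normalized counts were 579, 566 and 562 in DMSO, 2459, 2130.3, 2618 and 2387 with JQ1, and 1706, 1776 and 1629 with I-BET 762. All JQ1 libraries lay above all I-BET 762 libraries, and these above all DMSO libraries. The means were 569 ± 8.87 (SD, n = 3), 2399 ± 203 (n = 4) and 1704 ± 73.2 (n = 3). JQ1 raised it by 2.07 on the log2 scale (SE 0.07, limma adjusted p = 2.76e-13), or 4.198-fold, and I-BET 762 by 1.58 (SE 0.07, limma adjusted p = 4.08e-11), or 2.99-fold.

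FGFR2, a receptor whose alternative splice forms mark epithelial and mesenchymal cells, started low. It had 49.4, 66.6 and 61.9 normalized counts in DMSO, 208, 194, 226 and 225 with JQ1, and 201, 248 and 234 with I-BET 762. Both inhibitor groups lay above DMSO and overlapped each other. The rise was 3.57-fold with JQ1 (log2 1.84, SE 0.13, limma adjusted p = 2.57e-09) and 3.81-fold with I-BET 762 (log2 1.93, SE 0.14, limma adjusted p = 8.13e-09). Gene counts do not separate the splice forms. Of the ESRP factors that set them, ESRP2 was at 14.3, 3.95 and 10.9 mean normalized counts in DMSO, JQ1 and I-BET 762 (log2 -1.54 with JQ1, limma adjusted p = 0.00282). It passed the filter on low values only through DMSO and I-BET 762, and rests on 8 to 21 reads per library in DMSO and 3 to 4 with JQ1. ESRP1, too low to be tested, had at most 1 read with JQ1 and 2 with I-BET 762 against a DMSO mean of 7.76 normalized counts, at least 2.35-fold and 2.58-fold lower against a floor of 3 reads per library.

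FGFR1, the receptor most typical of mesenchymal cells, had the highest counts of the receptors. They were 3241, 3032 and 3097 in DMSO, 5930.3, 4992, 5783 and 6141 with JQ1, and 4654, 4624 and 4639.5 with I-BET 762. The groups did not overlap. JQ1 raised it 1.82-fold (log2 0.87, SE 0.06, limma adjusted p = 2.72e-09). With I-BET 762 the log2 fold change was 0.57 (95% confidence interval 0.43 to 0.71, limma adjusted p = 1.48e-06), just below the fold threshold, and without DMSO replicate 13 it was 0.60, just above it.

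FGFR4, the receptor for which FGF19 with beta-Klotho is the endocrine ligand, was not called in either comparison. Its counts were 1712, 1632 and 1623 in DMSO, 1802, 1651, 1822 and 1831 with JQ1, and 2044, 2046 and 1989.5 with I-BET 762. The I-BET 762 libraries were above all others, and JQ1 overlapped DMSO. Against DMSO, I-BET 762 differed by 0.29 on the log2 scale (SE 0.06, limma adjusted p = 0.00026) and JQ1 by 0.10 (95% confidence interval -0.01 to 0.21, limma adjusted p = 0.0909), and scaling all libraries to equal totals turned the JQ1 value to -0.08.

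FGFRL1, which binds FGFs but has no kinase domain, was the 1 gene called lower. Its counts were 618, 624 and 554 in DMSO, 386, 351, 409 and 435 with JQ1, and 432, 485 and 496 with I-BET 762. All inhibitor libraries lay below DMSO, and those of the 2 inhibitors overlapped. With JQ1 the log2 fold change was -0.60 (SE 0.09, limma adjusted p = 1.22e-05), which passed the fold threshold narrowly: it was -0.58 without DMSO replicate 13, -0.57 without DMSO replicate 14 and -0.54 without JQ1 replicate 18, none of which passed. With I-BET 762 it was -0.35 (SE 0.09, limma adjusted p = 0.0042), below the fold threshold.

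FGF18, a ligand of cartilage and lung development that binds FGFR3 among others, had the largest fold change of the 8 genes with either inhibitor. It had 26.2, 37.0 and 27.3 normalized counts in DMSO, 170.3, 176, 210.1 and 160.2 with JQ1, and 139, 152 and 142 with I-BET 762. The groups did not overlap. The rise was 5.82-fold with JQ1 (log2 2.54, SE 0.15, limma adjusted p = 3.25e-10) and 4.72-fold with I-BET 762 (log2 2.24, SE 0.16, limma adjusted p = 8.16e-09). The DMSO values rest on 27 to 40 reads per library, and those with an inhibitor on 141 to 210 reads.

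FGF2, or basic FGF, leaves cells without a signal peptide and had the highest counts of the 8 genes in DMSO and I-BET 762. They were 6404, 6707 and 6744 in DMSO, 5183, 5435, 5080.2 and 4978 with JQ1, and 6421, 6640.0 and 6774 with I-BET 762. All JQ1 libraries were below both other groups, which overlapped. The JQ1 log2 fold change of -0.36 (SE 0.04, limma adjusted p = 2.97e-06) stayed under the fold threshold, and with I-BET 762 it was -0.00 (95% confidence interval -0.10 to 0.10, limma adjusted p = 0.982). NUDT6 lies on the opposite strand and shares 804 exon bases (11.8%) with FGF2, and the strand setting of the counting is not given in the sources used here. NUDT6 had mean normalized counts of 592, 833 and 632 in DMSO, JQ1 and I-BET 762. How reads of the shared stretch were assigned, or whether they were counted at all, is not known.

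FGF5, a ligand known for ending hair growth, was not called. It had 138.5, 143 and 126 normalized counts in DMSO, 163, 156, 119 and 125 with JQ1, and 113, 101.3 and 115 with I-BET 762. JQ1 overlapped DMSO with the widest relative spread of its group, and I-BET 762 lay below both. Against DMSO, JQ1 differed by 0.03 on the log2 scale (95% confidence interval -0.25 to 0.32, limma adjusted p = 0.825) and I-BET 762 by -0.31 (-0.61 to -0.01, limma adjusted p = 0.0723). FGF5 also shares 136 exon bases with CFAP299, and 2.78% of its 75-base exon stretches have an exact copy elsewhere in the genome, against at most 0.558% for the other genes.

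**Figure D1:**
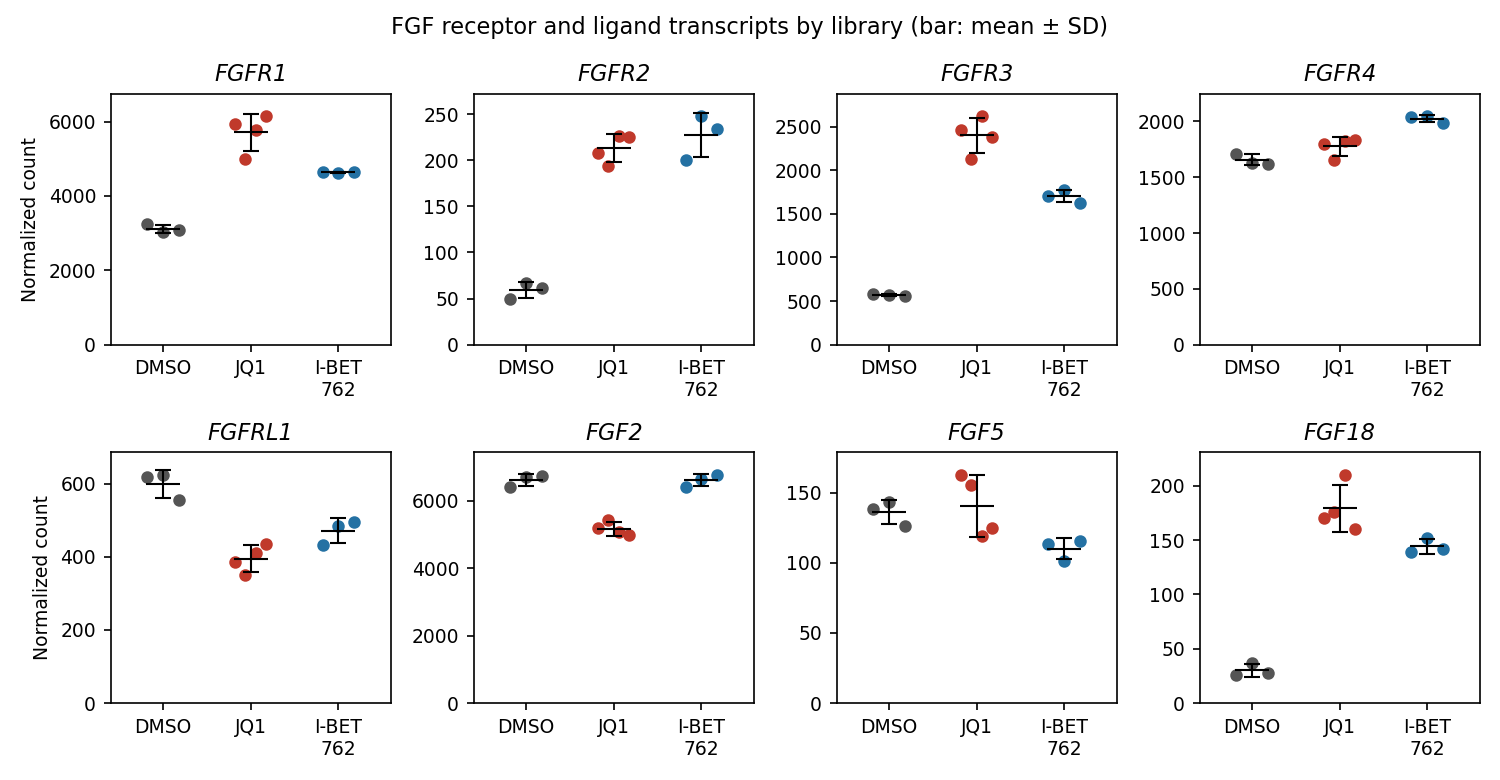
Normalized counts (y axis, from 0, a separate scale for each gene) of the 8 genes in DMSO (grey), JQ1 (red) and I-BET 762 (blue); points are libraries and black bars the mean ± SD. FGFR3 and FGF18 lay in 3 separate levels, FGFR2 in 2, and FGF2 was lower with JQ1 alone.

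Set directly against each other at the same dose and time, JQ1 and I-BET 762 differed in none of the 8 genes by the full rule: 0 were called by limma, and 0 by limma-voom on recovered reads, against 5.31% of all genes tested. An unadjusted p below 0.05 was reached by 6, but the share of all genes at that rule was not computed, so this count has no background. Of all genes called between the inhibitors, 67.5% were lower with JQ1, and 82% with equal totals. By the adjusted p alone, 5 of the 8 genes differed, against 27.3% of all genes (13.3% higher and 14% lower with JQ1). FGFR3 was higher with JQ1 by 0.49 on the log2 scale (95% confidence interval 0.35 to 0.63, limma adjusted p = 6.08e-05). FGFR1 was higher by 0.30 (0.17 to 0.42, limma adjusted p = 0.00214). Lower with JQ1 were FGF2, at -0.36 (-0.45 to -0.26, limma adjusted p = 4.27e-05), and FGFR4, at -0.19 (-0.30 to -0.08, limma adjusted p = 0.0121). FGFRL1 was also lower, at -0.25 (-0.44 to -0.07, limma adjusted p = 0.0397). The FGFR4 difference had an adjusted p of 0.0536 without I-BET 762 replicate 21 and 0.0534 without replicate 22, and that of FGFRL1 reached up to 0.155, without I-BET 762 replicate 23.

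By the adjusted p no difference was shown for the remaining genes, although their intervals leave room for one. For FGFR2 the interval of JQ1 against I-BET 762 ran from -0.36 to 0.18 (limma adjusted p = 0.636). For FGF18 it ran from -0.01 to 0.62 (limma adjusted p = 0.14), and for FGF5 from 0.06 to 0.62 (limma adjusted p = 0.0686). The FGF5 interval, which is not adjusted over genes, lay wholly on the higher side. In FGF18 and FGF5 all JQ1 libraries lay above all I-BET 762 libraries.

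**Figure D2:**
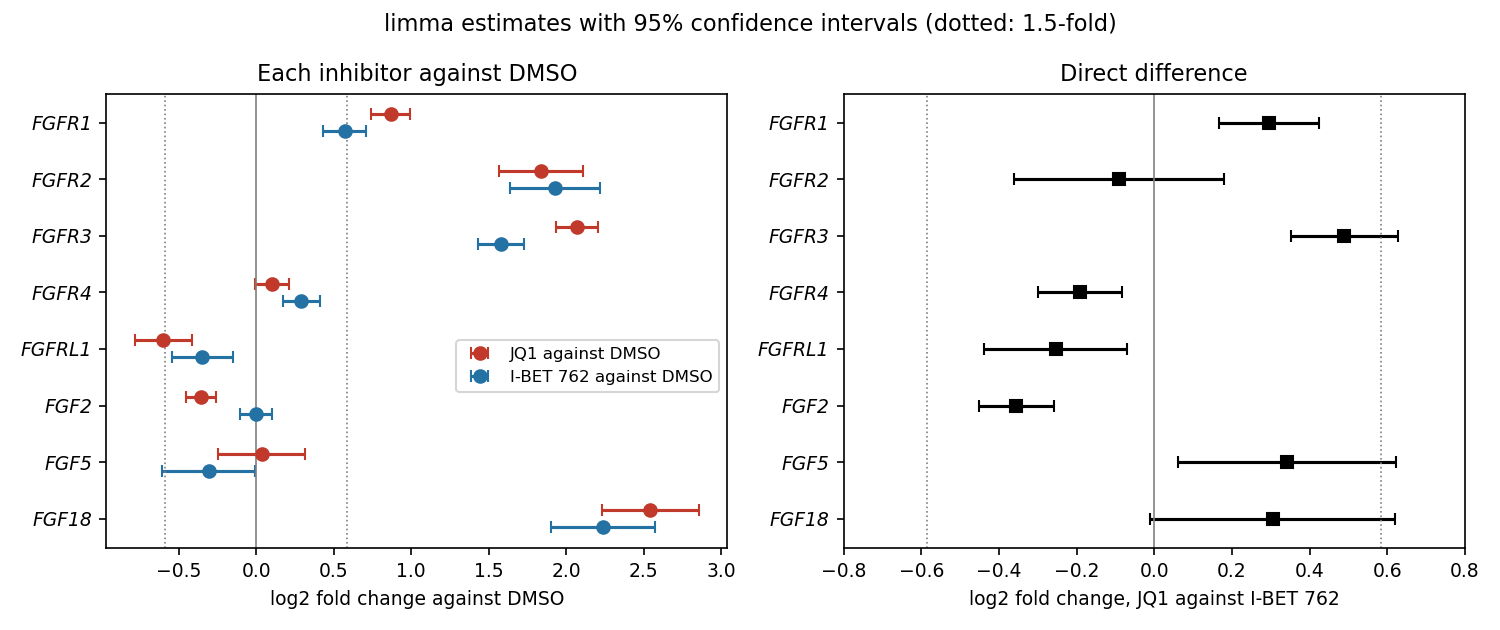
log2 fold changes (x axis) with 95% confidence intervals for the 8 genes, each inhibitor against DMSO (left) and JQ1 against I-BET 762 (right); dotted lines mark the 1.5-fold threshold. FGFR2, FGFR3 and FGF18 lay well beyond it with both inhibitors, and no direct difference had its estimate beyond it.

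Levels were compared between genes per kilobase of merged exons, in normalized counts per kilobase. In DMSO, FGF2 led at 973 ± 27.5, followed by FGFR4 at 344 ± 10.3, FGFR1 at 182 ± 6.20, FGFRL1 at 138 ± 8.91, FGFR3 at 117 ± 1.83, FGF5 at 22.8 ± 1.45, FGF18 at 15.1 ± 2.98 and FGFR2 at 3.15 ± 0.47 (SD, n = 3), with no overlap between neighbours. With JQ1, FGFR3 was second on this length, at 495 ± 41.9 (n = 4), above FGFR4 at 369 ± 17.6 and FGFR1 at 332 ± 29.2. FGFR4 and FGFR1 overlapped, as did FGFRL1 at 91.0 ± 8.19 and FGF18 at 89.7 ± 10.8. With I-BET 762, FGFR3 stood at 351 ± 15.1 (n = 3) below FGFR4 at 421 ± 6.67.

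The share of FGFR3 in the summed per-kilobase level of the 4 kinase receptors was 18.2% ± 0.22 in DMSO, 40.95% ± 1.25 with JQ1 and 33.3% ± 0.77 with I-BET 762. That of FGFR4 was 53.2% ± 0.23, 30.6% ± 0.77 and 39.96% ± 0.29. The share of FGFR2 did not exceed 1.23% in any library, or 2.76% with MANE Select lengths, described next. The sum itself was 646 ± 17.5, 1207 ± 83.9 and 1055 ± 21.1 normalized counts per kilobase. These values depend on the transcript length: the merged exons of FGFR1 span 17201 bases and those of FGFR2 18813, against 5697 and 4624 for their MANE Select transcripts, the single agreed reference transcript of each gene. With MANE Select lengths FGFR1 stood at 548 in DMSO, overlapping FGFR4 at 535, and first with JQ1 at 1003. FGFR3 with JQ1 was then no longer above FGFR4: it stood at 558, overlapping FGFR4 at 574, and below FGF2 at 777. The FGFR4 share was then 43.6%, 26.4% and 34.2% in DMSO, JQ1 and I-BET 762. The sum was then 1229 ± 34.1, 2181 ± 156 and 1915 ± 26.4, and the FGFR3 share was 10.8% ± 0.14, 25.6% ± 1.03 and 20.7% ± 0.61. On either length the lowest FGFR3 share with an inhibitor was above the highest in DMSO.

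**Figure D3:**
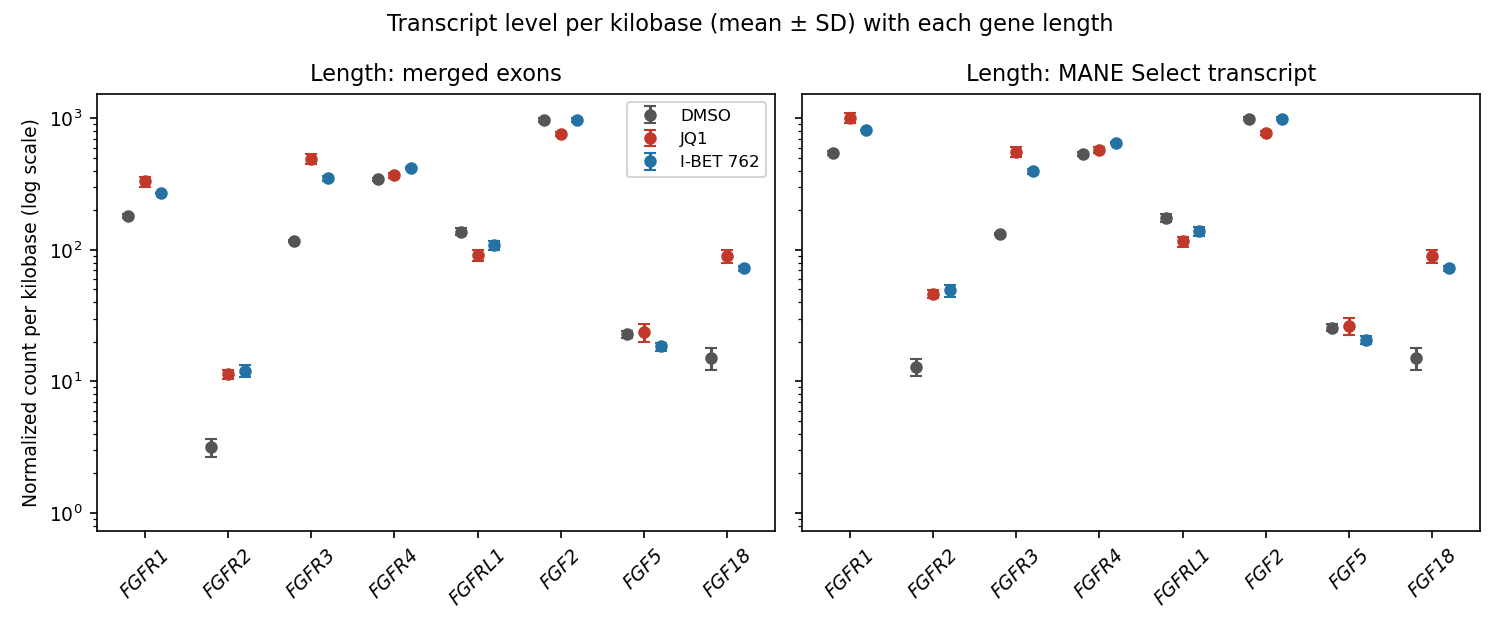
Mean normalized count per kilobase (log axis) ± SD for each gene in DMSO (n = 3), JQ1 (n = 4) and I-BET 762 (n = 3), with merged exons (left) or the MANE Select transcript (right) as the length. FGFR1 and FGFR2 move up by the length used, and FGFR3 rises with both inhibitors in both panels.

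The other genes of the pathway were taken from lists of known members. Of 18 other genes of the FGF family, 14 were in the table and 3 (FGF1, FGF17 and FGF22) were high enough to be tested. FGF1, which binds every FGF receptor, had mean normalized counts of 12.4, 9.16 and 3.62 in DMSO, JQ1 and I-BET 762 (log2 -1.53 for I-BET 762 against DMSO, limma adjusted p = 0.00566, and 1.17 for JQ1 against I-BET 762, limma adjusted p = 0.0405). It passed the filter only through DMSO and JQ1 libraries, and these values rest on 8 to 18 reads per library in DMSO, 6 to 10 with JQ1 and 2 to 5 with I-BET 762. FGF17, named after its values were seen, was lower in all JQ1 than in all DMSO libraries, on 8 to 10 against 15 to 18 reads. It was not called (log2 -0.64, limma adjusted p = 0.0526), but was called lower with equal totals (-0.81). FGF19, chosen for mention after its values were seen, had at most 2 reads with JQ1 and 1 read with I-BET 762 against a DMSO mean of 11.2 normalized counts, at least 3.40-fold and 3.73-fold lower against a floor of 3 reads per library, with no test.

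Of 13 coreceptors and FGF-binding proteins tested, 4 rose and 3 fell with JQ1, or 53.8% called beside 36.1% of all genes, and 2 rose and 3 fell with I-BET 762, or 38.5% beside 26.9%. SDC2 (syndecan-2, a heparan sulfate proteoglycan) rose from 75.4 to 351 and 311 mean normalized counts (log2 2.21 and 2.04). ANOS1, a heparan sulfate binding protein that modulates FGFR1, is counted among the rises at 5.64, 22.3 and 22.2 (log2 1.85 and 1.80), but passed the filter only through the inhibitor libraries and had 4 to 8 reads per library in DMSO. SDC1 (syndecan-1) fell from 1741 to 605.5 and 784 (log2 -1.52 and -1.15). FLRT2, a membrane protein that binds FGF receptors, fell from 121 to 40.9 and 38.9, and HSPG2 (perlecan), a basement membrane proteoglycan, from 1238 to 763 and 804. SDC4 and FGFBP3 were the other genes called higher with JQ1 (log2 0.63 and 0.59), and neither was called with equal totals (0.44 and 0.41). That scaling also added calls lower with JQ1, for SDC3 (-0.72), GPC3 (-0.85) and GPC4 (-0.99). No JQ1 library of GPC3 or GPC4 reached the filter. The balance of rises and falls in this list thus depends on the scaling. In the direct comparison GPC3 alone was called (log2 -1.002, limma adjusted p = 0.0478), on 4 to 9 reads per library with JQ1, none of which reached the filter, and 12 to 20 with I-BET 762. SDC3, SDC4, FGFBP3, GPC3 and GPC4 were chosen for mention after their values were seen. On the log2 scale the list's median was 0.00 with JQ1 and 0.17 with I-BET 762.

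Among 15 heparan sulfate enzymes tested, 5 rose and 5 fell with JQ1, or 66.7% called beside 36.1% of all genes, and 3 rose and 3 fell with I-BET 762, or 40% beside 26.9%. GLCE, the epimerase that makes iduronic acid, rose from 2097 to 5925 and 5541 mean normalized counts (log2 1.497 and 1.401). XYLT1, which starts the chains, was at 70.5, 109 and 112.5 (log2 0.63 and 0.68), called with both inhibitors but with neither under equal totals (0.45 and 0.58). NDST2, an N-sulfotransferase, is counted among the rises at 5.89, 16.8 and 14.3, but passed the filter only through the inhibitor libraries. It had 3.02 to 8.27 normalized counts per library in DMSO. Its values do not come out as whole reads, unlike those of most genes, so no read count is given and its level is less certain. SULF1, which removes sulfate groups from the chains outside the cell, fell from 41.1 to 5.57 and 12.9 (log2 -2.73 and -1.62), with no JQ1 library at the filter. HPSE, the heparanase, fell from 945 to 369 and 506, and EXTL2, a transferase of chain synthesis, from 2312 to 1347 and 1384. Named after their values were seen, the other genes called with JQ1 were NDST1 (log2 -0.90), XYLT2 (log2 -0.586), HS2ST1 (log2 0.587) and HS3ST3B1 (log2 0.98). XYLT2 and HS2ST1 were both at the threshold of 0.585. HS3ST3B1 is counted among the rises, but its JQ1 and DMSO libraries overlapped. It would not have passed the filter without JQ1, where 3 libraries reached it, beside 1 of DMSO and 1 of I-BET 762. It had 4 to 11 reads per library in DMSO and 8 to 16 with JQ1. With equal totals HS2ST1 (0.40) and HS3ST3B1 (0.82) were not called. SULF2, also named after its values were seen, was then called lower with JQ1 (-0.74), and XYLT2 with I-BET 762 (-0.63). NDST1 was then called lower with JQ1 than with I-BET 762 (-0.62). Between the inhibitors SULF1 (log2 -1.12) and SULF2 (log2 -0.61) were called lower with JQ1.

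Of 25 signal adaptors and kinases, all were tested, and 2 fell with JQ1 (MAPK3 and GAB1) and 1 with I-BET 762 (MAPK3), or 8% and 4% called beside 36.1% and 26.9% of all genes. By the adjusted p alone, 10 genes of the list were higher and 8 lower with JQ1, and 8 were higher and 9 lower with I-BET 762. That rule called 71.7% of all genes with JQ1 (36% higher and 35.6% lower) and 61.1% with I-BET 762 (29.9% higher and 31.3% lower). MAPK3, which encodes ERK1, went from 1113.5 mean normalized counts to 256.2 and 372 (log2 -2.12 and -1.59, limma adjusted p = 7.19e-12 and 1.27e-09). GAB1, a docking adaptor named after its values were seen, had a log2 fold change of -0.80 with JQ1. With equal totals GAB1 was also called lower with I-BET 762 (-0.59). FRS3, likewise named after its values were seen, was then called lower with JQ1 (-0.60). FRS2, the adaptor bound to FGF receptors, was at 1633, 1881 and 1845 and was not called.

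Of 15 induced targets and feedback genes tested, 10 rose and 2 fell with JQ1 (median log2 fold change 1.12), and 6 rose and 2 fell with I-BET 762 (0.53). Over all genes, 13.3% were called higher and 22.8% lower with JQ1, and 8.96% and 17.9% with I-BET 762. Under equal totals SPRY2 (0.53) was not called with I-BET 762, and IL17RD (-0.67) was called lower with JQ1, both named after their values were seen. ETV5, a transcription factor induced by ERK, rose from 446 to 2379 and 1424 mean normalized counts, DUSP6, the cytoplasmic ERK phosphatase, from 381 to 1853 and 840 and SPRY4, a Sprouty inhibitor, from 594 to 2325 and 1162. SPRED3, a Sprouty-related inhibitor, fell from 94.5 to 28.2 and 35.6, and ETV1, a relative of ETV5, from 41.5 to 16.3 and 20.8. Between the inhibitors 6 genes of the list were called higher with JQ1, against 1.73% of all genes (EGR1 not with equal totals, at 0.50), among them DUSP6 (log2 1.14, limma adjusted p = 1.51e-07), SPRY4 (log2 0.997, limma adjusted p = 3.69e-07) and ETV5 (log2 0.74, limma adjusted p = 1.17e-06).

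**Figure D4:**
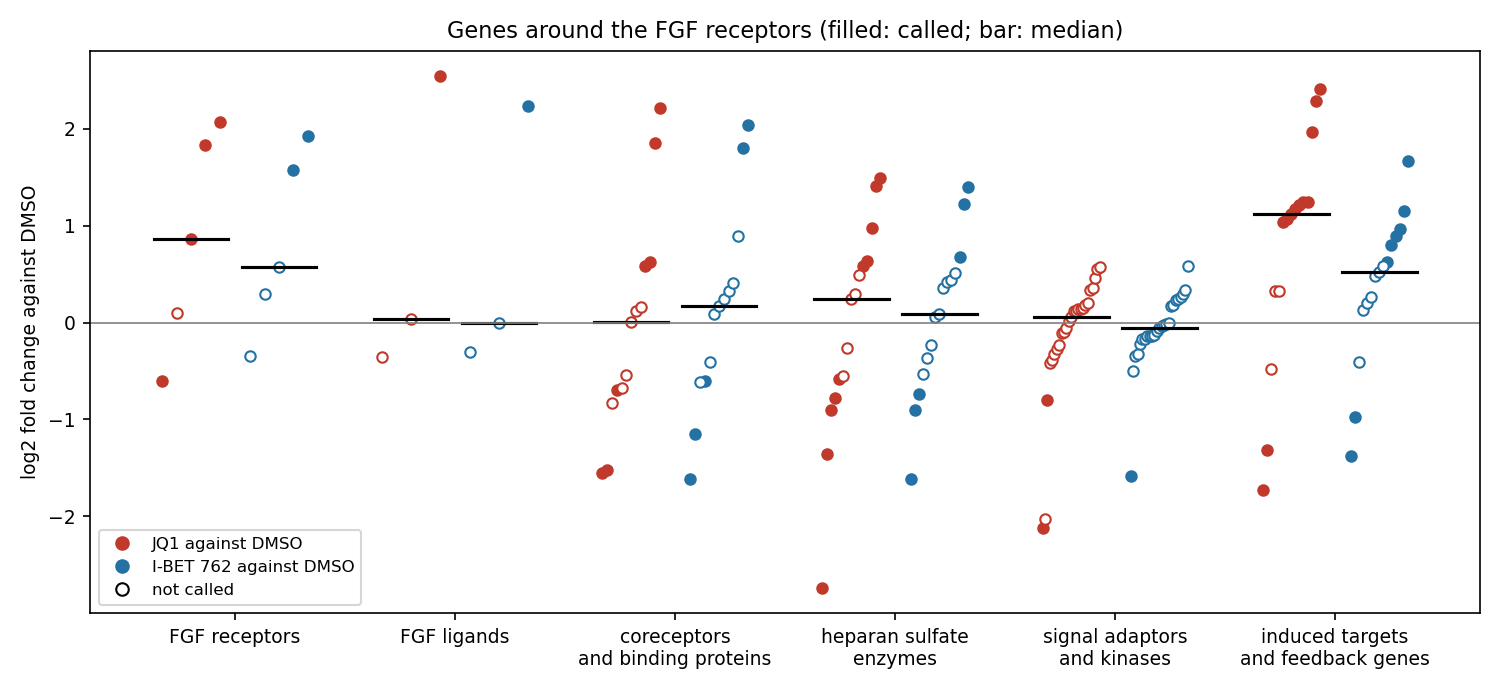
log2 fold changes against DMSO (y axis) of each gene tested in the FGF receptors and ligands and the pathway lists, with JQ1 in red and I-BET 762 in blue; filled points were called, open points were not, and bars are medians. The induced targets and feedback genes had the highest list medians after the receptors in I-BET 762 and the highest of all in JQ1, and the signal adaptors lay near 0 apart from a few genes.

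The genes whose pattern over the 10 libraries was most like each called gene were found among 11071 genes that averaged 100 or more normalized counts, by Pearson r of log2 values. Among them were PYGB (0.998), BAIAP2 (0.997) and PHLDA1 (0.997) for FGFR3, NIPA1 (0.998), ZNF511 (0.997) and DLC1 (0.996) for FGF18, and TIAM1 (0.994) and PCYOX1 (0.993) for FGFR2. For FGFR1 they were POLG (0.994), RHOT2 (0.994) and RNPS1 (0.994), and for FGFRL1 PDPR (0.983) and CLCN6 (0.982). All points share the same libraries and the 3 treatment groups, so the values describe the group pattern.

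On the genome (Gencode V44, hg38), FGFR3 (ENSG00000068078.20) lies at chr4:1793293-1808872 and FGFRL1 (ENSG00000127418.15) at chr4:1009936-1026898, both on the plus strand of the same chromosome arm. FGF2 (ENSG00000138685.18) is at chr4:122826682-122898236 and FGF5 (ENSG00000138675.17) at chr4:80266639-80336680, plus strand. FGF18 (ENSG00000156427.8) is at chr5:171419647-171457626 and FGFR4 (ENSG00000160867.15) at chr5:177086905-177098144, plus strand, and FGFR2 (ENSG00000066468.24) at chr10:121478332-121598458, minus strand. All are protein-coding, and the counts cover their exons as a whole.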

How the data were processed

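Total RNA of SK-UT-1 cells was sequenced from strand-specific libraries, with groups taken from the treatment each label names. The authors trimmed reads (Trimmomatic), aligned them to hg38 (HISAT2 2.2.1), counted them on Gencode genes (featureCounts 2.0.3), normalized with DESeq2 and left out outlier samples. The values deposited by the authors are log2 of the normalized count plus 1, from 0 to 20.48. Here the log2 was undone. The smallest step in each library gave its size factor, and 99.73% to 99.77% of values were whole reads within 0.01 read. Library pairs within a group differed by a chi-square per gene of 2.68 to 20.6, more than counting error. The highest values were those of the pairs with JQ1 replicate 18.

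Genes with at least 10 normalized counts in at least 3 libraries were fitted in limma 3.58.1 (R 4.3.3) on log2(normalized count + 1), with an intensity trend and all 10 libraries in 1 model. Fold changes are on that scale and understate changes of low genes. p-values were Benjamini-Hochberg adjusted over 14839 genes. The alternatives were pseudocounts of 0.5 and 5, other filters, equal totals, equal upper quartiles, no trend, limma-voom on recovered reads, other fold thresholds and leaving out each library. Positions and lengths came from Gencode V44. Tables were made in Python 3.11.15 with numpy 2.4.6 and pandas 2.3.3, and the fit was tested on simulated data. The genes and lists were chosen with earlier results of these data known. Genes named from a list were the up to 3 with the largest rise and fall called the same way with both inhibitors. Genes of the most similar pattern were the 3 with the highest Pearson r, some of which are not reported here. DMSO replicate 16 and I-BET 762 replicate 24 were not analysed here.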

Additional observations from a re-analysis of the deposited data

Results flagged for a closer look

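In the JQ1 group, the FGFR4 value of replicate 18, 1651 normalized counts, stood apart from the other 3 libraries at 1802 to 1831. Its gap to the nearest library was 0.848 of the group's range on the log2 scale, above Dixon's 95% critical value for 4 libraries. Chance flags about 1 in 20 groups, and 8 were examined, 1 for each gene with JQ1, all from the same libraries. Over all genes, the pairs of replicate 18 with replicates 17, 19 and 20 had a chi-square per gene of 20.6, 19.2 and 20.1. The other JQ1 pairs had 5.10, 14.3 and 11.8. Replicate 18 was also the lowest JQ1 library for FGFR1, FGFR2, FGFR3 and FGFRL1, but not for FGF2, FGF5 or FGF18. Without this library the log2 fold change against DMSO was 0.14 (limma adjusted p = 0.011), in place of 0.10 (limma adjusted p = 0.0909), and still under the 1.5-fold threshold.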

How the results depend on the processing

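Over 432 recomputed log2 fold changes of the 8 genes, 419 kept their direction and their side of the threshold, 9 changed sign, 3 fell below the threshold and 1 passed it. Part of the 432 could not move in fold change, only in p-value. These are the other filters, the fit with no trend, and leaving out a library of the group not compared. The 419 therefore overstates how far the values were put to a test. The sign changes all concern values close to 0 that were not called. For JQ1 against DMSO, FGFR4 was -0.08 with equal totals, and FGF5 was -0.15 with equal totals, -0.03 with equal upper quartiles, -0.02 without DMSO replicate 15, -0.04 without JQ1 replicate 17 and -0.02 without JQ1 replicate 18, within a range of -0.04 to 0.11 over the libraries left out. For I-BET 762 against DMSO, FGF2 was 0.01 without DMSO replicate 14 or 15 and 0.02 without I-BET 762 replicate 21. The threshold was crossed by FGFRL1 with JQ1 (-0.58, -0.57 and -0.54 without DMSO replicate 13, DMSO replicate 14 and JQ1 replicate 18) and by FGFR1 with I-BET 762 (0.60 without DMSO replicate 13). The count of called genes with JQ1 was 5, and 3 with a fold change over 2, a rule whose share over all genes was not computed. With no fold threshold it was 6 for JQ1, beside 71.7% of all genes. It was then 6 for I-BET 762 in place of 3, beside 61.1% of all genes. For JQ1 against I-BET 762 it was 5 in place of 0, beside 27.3%. Leaving out 1 library gave 4 to 5, 3 to 4 and 0 called genes in the 3 comparisons. FGFR2, FGFR3 and FGF18 stayed called with both inhibitors under every alternative fit, at log2 fold changes of 1.65 to 1.92, 1.88 to 2.13 and 2.36 to 2.69 with JQ1 and 1.80 to 2.02, 1.48 to 1.61 and 2.10 to 2.39 with I-BET 762.

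Scaling to equal totals moved the median log2 fold change of all genes by -0.18 with JQ1, -0.10 with I-BET 762 and -0.09 between them. The share of lower calls moved from 63.1% to 77.5%, from 66.7% to 75.5% and from 67.5% to 82.0%. Equal totals for the pathway lists and the MANE Select length were chosen after seeing the data, and the length changed the order of levels as given above. No paired analysis was made because the labels state no pairing. The replicate numbers, 13 to 24, run on from group to group and do not show whether libraries were matched. FGF18 and FGFR2 in DMSO rest on 27 to 40 and 51 to 72 reads per library, which limits the precision of their fold changes.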
